A study of Camellia reticulata with 27 samples.

Results

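The 6 transcripts described here are those that the study named chalcone synthase (CHS) in its table of transcripts co-expressed with transcription factors: Cluster-72978.4, Cluster-72978.5, Cluster-72978.7, Cluster-72978.8, Cluster-72978.9 and Cluster-72978.11. They are 6 of 225938 transcripts assembled from flowers of Yunnan Camellia (Camellia reticulata). All 6 were among the 55099 transcripts whose mean FPKM (fragments per kilobase of transcript, scaled to the fragments of the library) reached 5 in at least 1 group. Cluster-72978.7 passed this filter only through MN at bud stage 3, where its mean was 6.52 FPKM, and Cluster-72978.5 only through the buds of SZT (10.98 FPKM) and MN at bud stage 3 (15.7 FPKM), so their differences from these groups are not counted as support for any pattern. The name CHS was taken from the study and was not checked against sequence here. The study built that table by correlation across these same samples, so it is not independent evidence of how CHS moved.

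RNA was sequenced from 27 libraries, 3 in each of 9 groups, from 3 cultivars. The labels give the tissue as flowers and the study's methods as petals. Tongzimian (TZM) is a white cultivar and Shizitou (SZT) a red one, and each was collected as buds and in full bloom. In the paper, TZM petals looked whitish but matched a red-purple group of a color chart at each stage. They are counted as white here. Manao (MN) arose as a bud variant of SZT and bears mixed white and red petals. It was collected at bud stage 1, at bud stage 3, at the initial flowering stage and at the full-bloom stage, the last with the white region and the red region of the petal sampled apart.

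Chalcone synthase is the entry enzyme of the flavonoid pathway. It joins a coumaroyl unit to malonyl units to give naringenin chalcone, from which flavonols, proanthocyanidins and the red and purple anthocyanins of petals are all made. In petunia and dahlia, silencing of CHS gives white petal sectors, so the level of CHS is a usual first measurement when pale and colored petals are compared.

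FPKM is a level per transcript length and per library, so levels of different transcripts can be set side by side. Transcripts with the same number before the point may share reads, which makes the value of a single transcript less certain than the CHS sum, the summed FPKM of the 6. Read totals are not used here, so the depth behind a value is unknown. A value listed at 0 may also be a failed estimate. In petals sampled whole, fewer cells that express a gene and less RNA per cell cannot be told apart. The labels do not say whether libraries of a group came from separate plants, so p-values measure only the spread between these libraries, which may be technical. Each library correlated with its own group at a mean r of 0.828 to 0.895 across transcripts. Some libraries stood apart. Replicate 3 of the SZT buds had a CHS sum of 3906 FPKM, against 8275 and 9482 FPKM in the other replicates. In 4 full-bloom libraries, replicates 2 and 3 of TZM, replicate 1 of the white region and replicate 2 of the red region, the 10 most abundant transcripts of all took 12.1% to 13.7% of the summed FPKM, against 4.03% to 9.93% in the other libraries. Where leaving out these libraries changed a call or a direction or moved a called value by more than 1.5 times, and for the main shares and color differences, the values without them are given too. Setting the 4 aside was chosen after seeing the data. It leaves TZM at full bloom with 1 library, replicate 1, which is then assumed to vary like the other groups. Replicate 1 had the lowest mean r with its own group, 0.834 against 0.864 and 0.861 in replicates 2 and 3. Values for TZM at full bloom with the 4 set aside rest on it.

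CHS transcripts were most abundant in buds. The mean CHS sum at full bloom was 31.9-fold lower than in the bud in SZT and 150.4-fold lower in TZM, and at full bloom every red library lay above every white one. The mean CHS sum was 8331 ± 659.9 FPKM (SD, n = 3) in MN at bud stage 3, 7221 ± 2933 in SZT buds, 6259 ± 856 in TZM buds and 5276 ± 371 in MN at bud stage 1. It was 1335 ± 220.4 FPKM at the initial flowering stage of MN. At full bloom it was 227 ± 33.2 FPKM in SZT, 152 ± 41.7 in the red region of MN, 41.6 ± 12.9 in TZM and 24.2 ± 6.06 in the white region of MN. In this order the 4 bud groups each overlapped with the next, as did TZM and the white region at full bloom. No library overlapped between MN bud stage 1 and initial flowering, between initial flowering and SZT at full bloom, between SZT and the red region, or between the red region and TZM. As a share of the summed FPKM of a library, CHS took 0.324% to 0.817% in buds and 0.00134% to 0.0210% at full bloom. The sum is a description and was not tested.

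**Figure D1:**
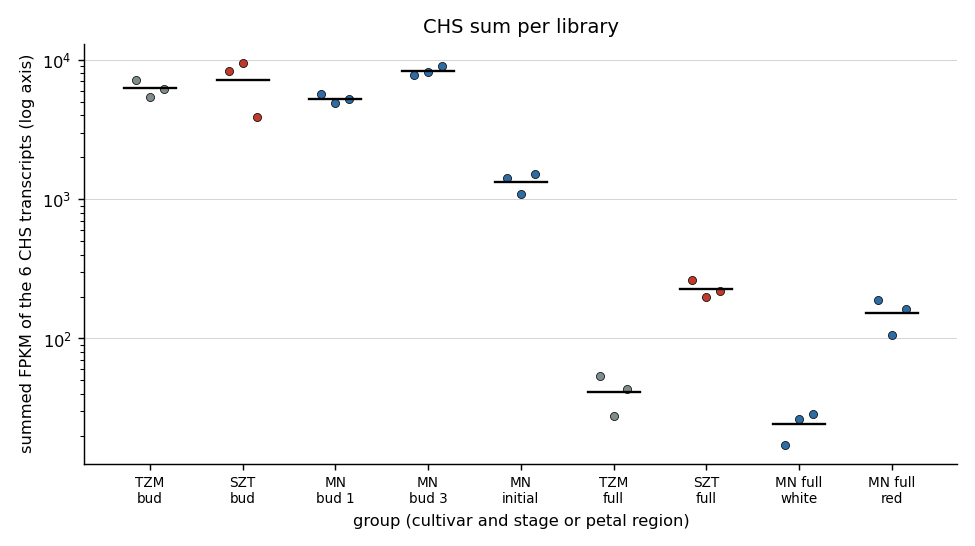
Summed FPKM of the 6 CHS transcripts (log axis) in each of the 27 libraries by group, with TZM in grey, SZT in red, MN in blue and the mean of each group as a line. Buds lie between 3906 and 9482 FPKM, the initial flowering stage of MN near 1335 FPKM, the red petals at full bloom between 106 and 263 FPKM and the white petals between 17.3 and 53.6 FPKM.

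Cluster-72978.11 was the most abundant CHS transcript in all 9 bud libraries of SZT and MN. Its FPKM was 3788, 3443 and 2394 in the SZT buds, 3112, 2783 and 2828 in MN at bud stage 1, and 3322, 3459 and 3879 at bud stage 3. In TZM buds it was 2571, 1832 and 2179 FPKM, overlapping with SZT but below every MN bud library. At the initial flowering stage it had 391, 286.7 and 418 FPKM. At full bloom the values separated by color without overlap. The red petals held 64.5, 82.4 and 89.6 FPKM in SZT and 35.0, 46.0 and 33.1 FPKM in the red region of MN, and the white petals 8.94, 12.6 and 13.4 FPKM in TZM and 7.79, 3.12 and 4.68 FPKM in the white region. The lowest red library was 2.47-fold above the highest white one.

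Cluster-72978.4, Cluster-72978.8, Cluster-72978.9 and Cluster-72978.11 are called the 4 abundant CHS transcripts, a set marked off by levels in these data. Of these, Cluster-72978.8 had the smallest ratio of bud to full bloom in SZT and TZM. Its FPKM was 2387, 1869 and 2282 in TZM buds, 1927, 2829.6 and 708 in SZT buds, 1213, 883 and 1029 in MN at bud stage 1, and 1665, 1758 and 1976 at bud stage 3. At the initial flowering stage it still had 667, 567 and 801 FPKM and was the most abundant CHS transcript in all 3 libraries. At full bloom it had 182, 108 and 123 FPKM in SZT, 141, 41.1 and 121 in the red region, 42.9, 10 and 24.3 in TZM, and 7.93, 21.7 and 23.3 in the white region. Red and white petals overlapped for this transcript, because replicate 1 of TZM at 42.9 FPKM lay above replicate 2 of the red region at 41.1 FPKM.

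Cluster-72978.9 and Cluster-72978.4 were high in buds and at most 10.6 FPKM at full bloom. Cluster-72978.9 had 1449.7, 1134 and 1149 FPKM in TZM buds, 1354, 1726 and 440.2 in SZT buds, 764, 669 and 733 in MN at bud stage 1, and 1528, 1616 and 1611 at bud stage 3. Cluster-72978.4 had 724, 593 and 591 FPKM in TZM buds, 1174, 1473 and 359.8 in SZT buds, 580, 597 and 621 at bud stage 1, and 1267, 1271 and 1575 at bud stage 3. For both, bud stage 3 of MN lay above bud stage 1 in every library, and replicate 3 of the SZT buds was the lowest of all 12 bud libraries. At the initial flowering stage Cluster-72978.9 had 193, 128 and 156 FPKM and Cluster-72978.4 had 160.4, 104 and 129 FPKM. At full bloom Cluster-72978.9 had 8.80, 3.41 and 3.99 FPKM in SZT, 6.56, 10.6 and 3.81 in the red region, 1.78, 4.11 and 3.92 in TZM, and 0.92, 0.70 and 0.57 in the white region. Red and white petals overlapped for Cluster-72978.9, where TZM reached the level of SZT. Cluster-72978.4 had 7.73, 4.32 and 2.97 FPKM in SZT, 4.58, 8.43 and 4.6 in the red region, 1.2 and 1.69 in TZM replicates 2 and 3 with replicate 1 listed at 0, and 0.69, 0.70 and 0.35 in the white region. Every red library of Cluster-72978.4 lay above every white one.

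Cluster-72978.5 and Cluster-72978.7 were minor transcripts that together made up at most 0.377% of the CHS sum. Cluster-72978.5 reached 21.9, 6.92 and 4.11 FPKM in SZT buds and 9.53, 17.6 and 20.0 at bud stage 3 of MN. It lay between 1.75 and 5.45 FPKM in TZM buds and MN bud stage 1, and at most at 1.87 FPKM at initial flowering. Cluster-72978.7 reached 9.27, 3.87 and 0.97 FPKM in SZT buds and 3.20, 9.14 and 7.21 at bud stage 3, and at most 2.15 FPKM in every other group. At full bloom each was listed at 0 in 10 of 12 libraries, with no value above 0.20 FPKM, so no fold change is given for them there.

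**Figure D2:**
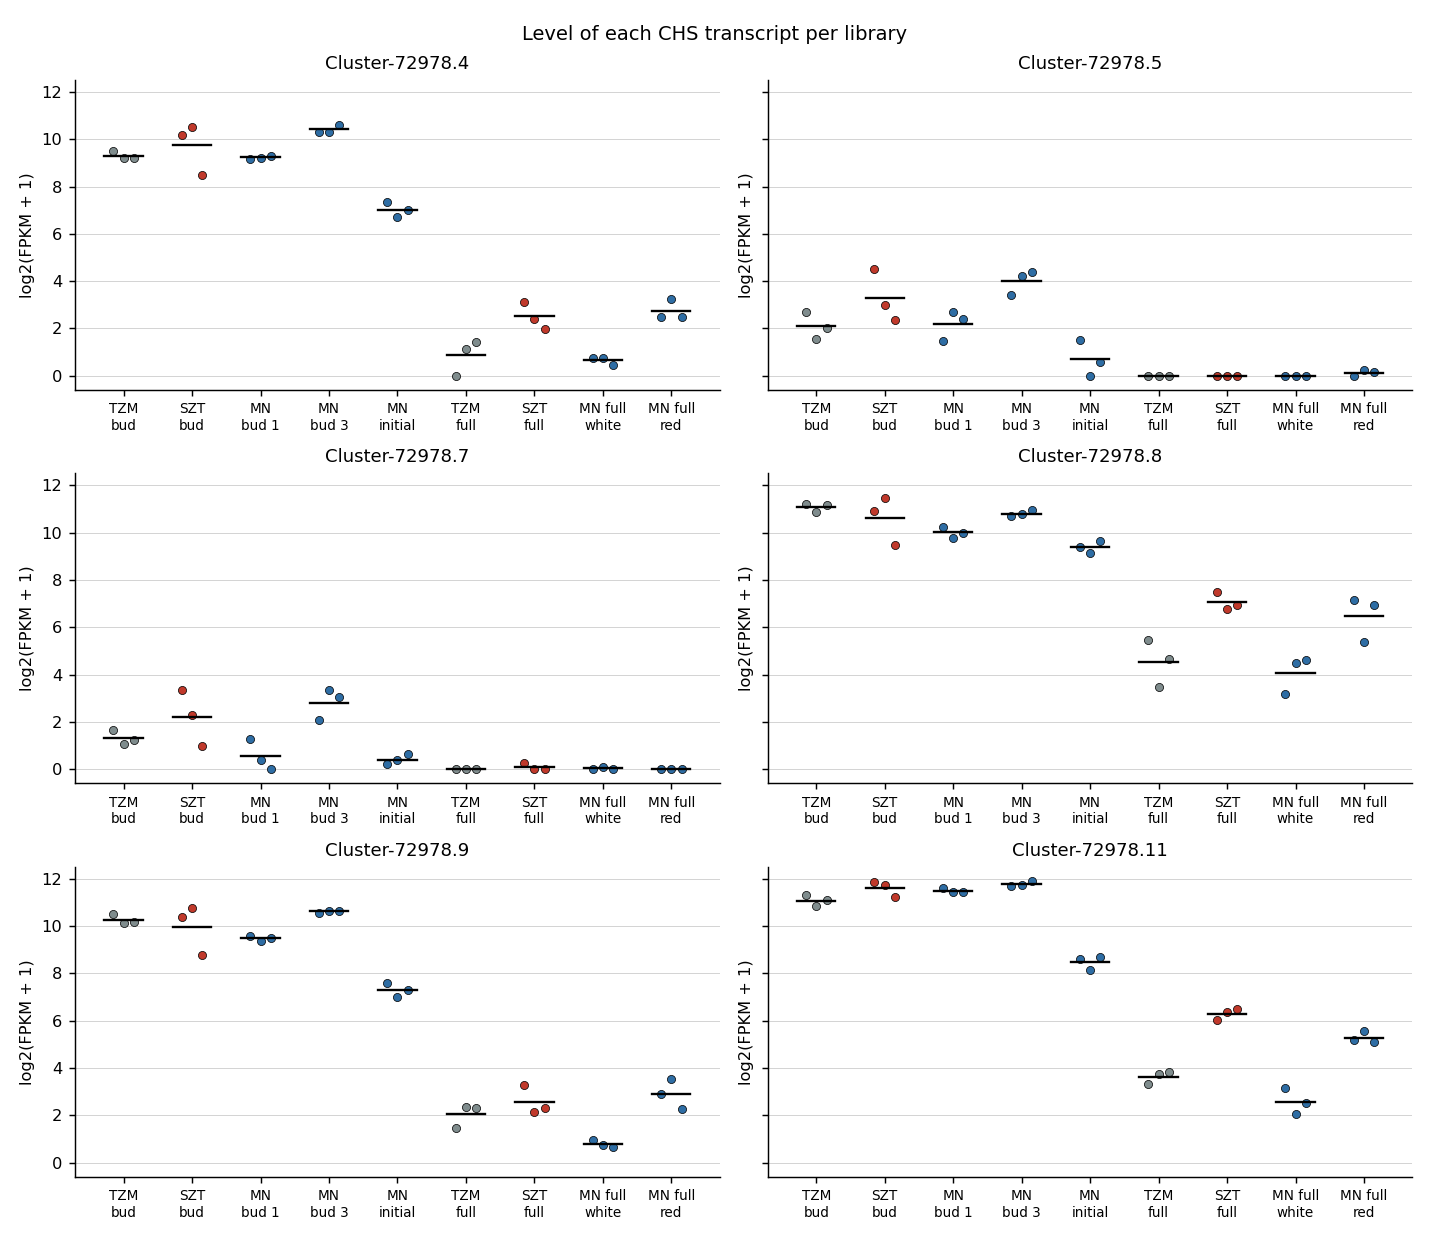
Level of each CHS transcript as log2(FPKM + 1) in the 27 libraries by group, with TZM in grey, SZT in red, MN in blue and the group mean as a line. All 6 are highest in buds, and Cluster-72978.8 lies at 567 to 801 FPKM at the initial flowering stage of MN against 883 to 1213 FPKM at bud stage 1.

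Across the 27 libraries the transcripts followed one another, with Pearson's r of log2(FPKM + 1) from 0.710 between Cluster-72978.7 and Cluster-72978.8 to 0.994 between Cluster-72978.4 and Cluster-72978.9. These values share the libraries and the large step from bud to bloom. Over the 12 bud libraries alone, r was 0.911 between Cluster-72978.8 and Cluster-72978.9 but 0.168 between Cluster-72978.8 and Cluster-72978.11, the most abundant pair. These are descriptions with no test.

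The makeup of CHS changed with stage. Cluster-72978.11 made up 45.1% of the CHS sum on average over the 12 bud libraries and 29.6% over the 12 full-bloom libraries, whereas Cluster-72978.8 made up 25.0% and 62.4%. Cluster-72978.4 went from 12.7% to 2.98% and Cluster-72978.9 from 17.0% to 4.98%. By exact two-sided permutation tests with stage labels exchanged within cultivars (369600 regroupings), p was 5.41e-06 for Cluster-72978.4 and Cluster-72978.9, the smallest this test can give, 1.08e-05 for Cluster-72978.8, 0.00380 for Cluster-72978.11, 0.000958 for Cluster-72978.5 and 0.796 for Cluster-72978.7. As a log2 ratio to the other CHS transcripts, the differences of Cluster-72978.5 and Cluster-72978.7 turned to 3.56 and 4.73 (exact permutation, p = 5.41e-06 for each), so no direction is read for these minor transcripts. With the 4 libraries set aside the difference, full bloom minus bud, was 46.6 percentage points for Cluster-72978.8 against 37.4 with them, -21.3 against -15.6 for Cluster-72978.11, -14.4 against -12.0 for Cluster-72978.9 and -10.8 against -9.77 for Cluster-72978.4. These are 6 tests with unadjusted p, and the shares of a library sum to 100%, so they are not independent. The regroupings exchange single libraries, so these p-values do not measure the spread between cultivars. For Cluster-72978.4 the shares did not overlap, with 9.21% to 17.4% in buds and 0% to 7.93% at full bloom. For Cluster-72978.8 they overlapped slightly, from 17.9% to 36.8% in buds and from 35.8% to 82.5% at full bloom. For Cluster-72978.11 they overlapped widely, from 33.7% to 61.3% in buds and from 11.9% to 45.1% at full bloom. Its stages overlapped in TZM (means 35.0% and 30.9%), in SZT (47.8% and 35.7%) and from MN bud stage 3 to either region. MN bud stage 1 lay above every full-bloom library.

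In MN the shares were close between the libraries of each stage before full bloom. At bud stage 3, Cluster-72978.11 held 42.6%, 42.5% and 42.8% and Cluster-72978.8 held 21.4%, 21.6% and 21.8%. At bud stage 1, Cluster-72978.11 held 54.9%, 56.4% and 54.2%, above every library of bud stage 3. At the initial flowering stage the order had turned: Cluster-72978.8 held 47.2%, 52.2% and 53.2% and Cluster-72978.11 held 27.7%, 26.4% and 27.8%. Cluster-72978.4 took 16.4% ± 0.877 (SD, n = 3) at bud stage 3 and 9.85% ± 1.40 at initial flowering, and Cluster-72978.9 took 19.1% ± 1.14 and 11.9% ± 1.64, in neither case with overlap.

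TZM buds stood apart in makeup from the buds of SZT and MN. Cluster-72978.8 held 33.4%, 34.4% and 36.8% in TZM buds, more than in any other bud library (17.9% to 29.8%), and Cluster-72978.11 held 36.0%, 33.7% and 35.1%, less than in any other bud library (36.3% to 61.3%). Cluster-72978.9 had 1.91 to 2.00 times the level of Cluster-72978.4 in TZM buds, against 1.15 to 1.22 times in SZT buds and 1.02 to 1.32 times in MN buds. In the TZM full-bloom libraries where Cluster-72978.4 was above 0, the ratio was 3.43 and 2.32, while in SZT and MN it lay between 0.789 and 1.63 at full bloom. This ratio was picked after the values were seen and was not tested. In SZT buds the shares varied more: Cluster-72978.11 held 45.8%, 36.3% and 61.3%, with the highest value in replicate 3.

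**Figure D3:**
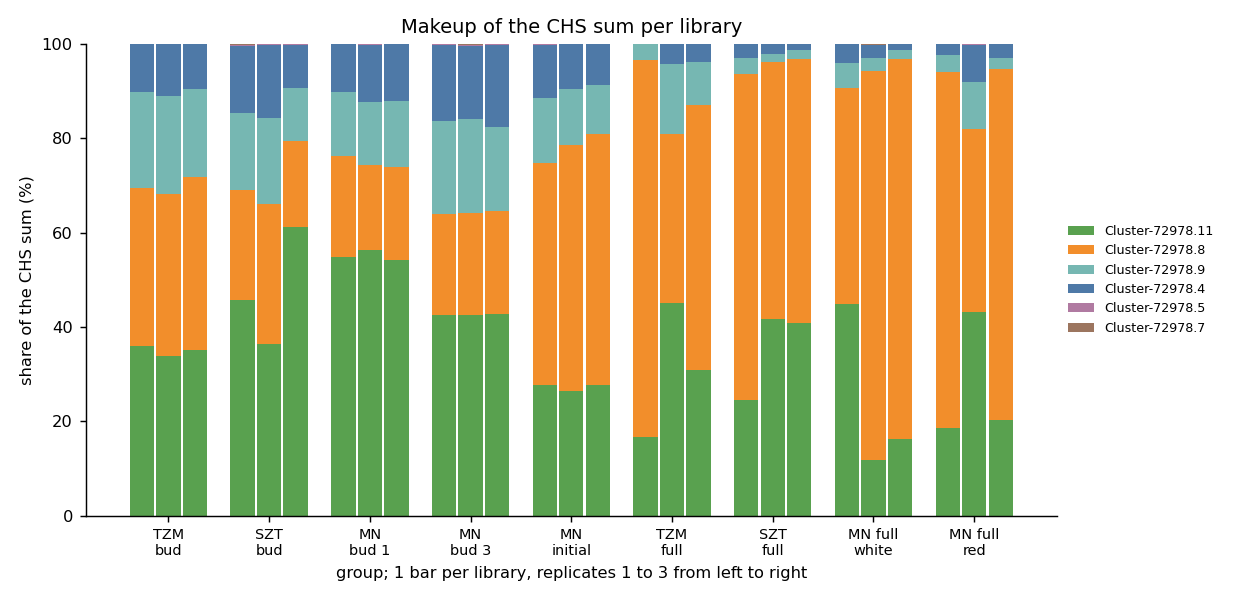
Share of the CHS sum (%) held by each of the 6 transcripts, 1 stacked bar for each of the 27 libraries, replicates 1 to 3 from left to right in each group. Cluster-72978.8 grows from 17.9% to 36.8% in buds to 47.2% to 53.2% at initial flowering and 35.8% to 82.5% at full bloom, while Cluster-72978.4 and Cluster-72978.9 shrink.

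Between red and white petals at full bloom no difference in share passed the test, though on another scale, the log2 ratio of a transcript to the other CHS transcripts, 3 of 6 did: Cluster-72978.5 at -2.46, Cluster-72978.7 at -2.503 and Cluster-72978.9 at -1.23 (exact permutation, p = 0.005, 0.005 and 0.045). The first of these turned in sign, and both minor transcripts were at or near 0 there, where the pseudocount of 1 sets the ratio. Cluster-72978.9 also lay under this pseudocount in the white region, at 0.57 to 0.92 FPKM. Within MN its share of the CHS sum was higher in the red region, 5.28% against 3.32% on average, with overlap. No direction is therefore read from these ratios. Cluster-72978.8 held 61.3% of the CHS sum in the 6 red libraries (SZT and red region of MN) and 63.5% in the 6 white ones (TZM and white region of MN), and Cluster-72978.11 held 31.5% and 27.6%. Exact two-sided permutation tests with labels exchanged within MN and between SZT and TZM (400 regroupings, smallest p 0.005) gave p = 0.835 and 0.615, and p from 0.370 to 1 for the other transcripts. The shares spread widely within the groups. Cluster-72978.11 held 45.1% and 30.9% in TZM replicates 2 and 3, 45.0% in replicate 1 of the white region and 43.3% in replicate 2 of the red region, which are the 4 libraries with a high share of the 10 most abundant transcripts. In the other TZM and MN libraries at full bloom it held 11.9% to 20.3%, and in SZT 24.5%, 41.7% and 40.8%. Without the 4 libraries, the red minus white difference was -15.1 percentage points for Cluster-72978.8 and 14.3 for Cluster-72978.11 (exact two-sided permutation, p = 0.0417 for each, unadjusted over the 6 tests). This is the smallest p that the remaining libraries can give, with 1 library left for TZM.

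In MN, the 6 transcripts were compared from stage to stage with limma on log2(FPKM + 1), a scale that understates changes of low transcripts. A transcript was called at a Benjamini-Hochberg adjusted p under 0.05 over all 55099 transcripts. From bud stage 1 to bud stage 3, Cluster-72978.7 rose by 2.26 (limma, SE 0.43, adjusted p = 0.00484) and Cluster-72978.5 by 1.82 (SE 0.46, adjusted p = 0.0273). Both passed the filter through bud stage 3, so nothing is read from the 2 of 6 called beside 2.35% of all transcripts called higher. The 4 abundant transcripts did not pass: the differences were 1.19 for Cluster-72978.4, 1.13 for Cluster-72978.9, 0.80 for Cluster-72978.8 and 0.29 for Cluster-72978.11 (limma, adjusted p = 0.110, 0.114, 0.461 and 0.606). Their median was 0.97, beside 0 over all transcripts. The call of Cluster-72978.5 was lost without any of 4 libraries, replicates 1 and 3 of bud stage 1 and replicates 2 and 3 of bud stage 3, with an adjusted p of up to 0.129.

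From bud stage 3 to initial flowering the 4 abundant transcripts all fell, where 20.8% of all transcripts were called lower. The log2 difference was -3.29 for Cluster-72978.11 (limma, SE 0.24, adjusted p = 1.70e-09), -3.39 for Cluster-72978.4 (SE 0.41, adjusted p = 1.21e-06) and -3.33 for Cluster-72978.9 (SE 0.39, adjusted p = 9.58e-07). Cluster-72978.5 and Cluster-72978.7, at -3.30 and -2.41 (adjusted p = 6.89e-06 and 0.000136), were called too, but passed the filter through bud stage 3 and are not counted. For Cluster-72978.8 it was -1.42 (SE 0.51, adjusted p = 0.0355), a ratio of means of 2.65 against 9.73 to 10.4 for the other abundant transcripts. Its call did not hold without a filter or after median-ratio scaling of the libraries, or without any 1 of 5 of the 6 libraries, all but replicate 3 of initial flowering (adjusted p of up to 0.104). The difference between these falls was not tested. The median of the 4 abundant transcripts was -3.31, beside -0.0067 over all transcripts.

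At full bloom the 4 abundant transcripts were lower in each region of the petal than at initial flowering. The regions were not sampled apart at initial flowering, so these differences mix stage with petal region. In the red region the log2 difference was -3.23 for Cluster-72978.11, -2.90 for Cluster-72978.8, -4.29 for Cluster-72978.4 and -4.39 for Cluster-72978.9 (by limma, adjusted p = 4.47e-09, 0.000189, 1.06e-07 and 4.80e-08). In the white region the differences were -5.94, -5.31, -6.37 and -6.52 (by limma, adjusted p = 9.84e-13, 1.20e-07, 4.73e-10 and 2.31e-10). Called lower were 4 of 6 in each region, beside 19.1% of all transcripts in the red region and 20.5% in the white region. The medians of the 6 were -3.06 and -5.62, and those of the 4 abundant transcripts -3.76 and -6.16, beside -0.16 and -0.18 over all transcripts. Both comparisons share the libraries of initial flowering, so they are not independent.

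**Figure D4:**
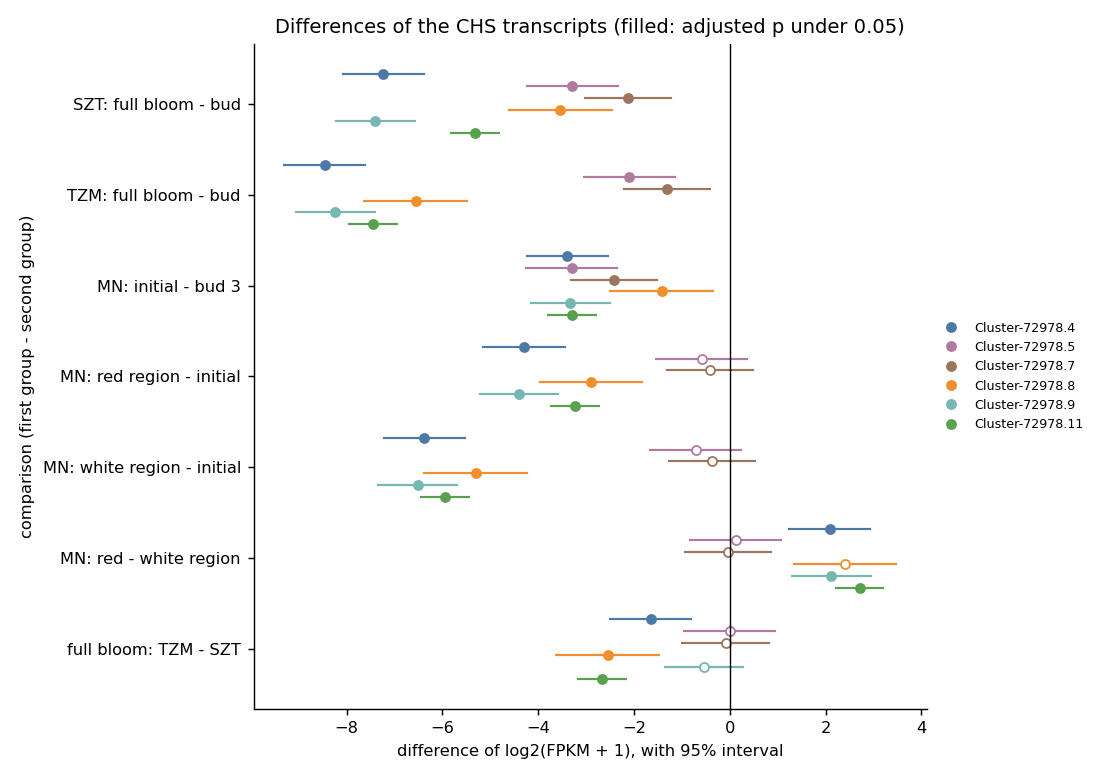
Difference of log2(FPKM + 1) for each CHS transcript in 7 comparisons, first group minus second, with the 95% interval from limma, filled where the adjusted p over all transcripts was under 0.05. The falls from bud to full bloom reach -8.45 in TZM and -7.40 in SZT, and in the red against the white region of MN the 4 abundant transcripts lie between 2.08 and 2.71.

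In the red region of MN, 3 of the 6 transcripts were higher than in the white region, in a comparison in which 0.142% of all transcripts (78) were called higher. Cluster-72978.11 was higher by 2.71 (limma, SE 0.24, adjusted p = 2.45e-06), a ratio of means of 7.31. Cluster-72978.9 was higher by 2.12 (SE 0.39, adjusted p = 0.0242) and Cluster-72978.4 by 2.08 (SE 0.41, adjusted p = 0.0348). Mean FPKM in the red and white regions was 7 and 0.73 for Cluster-72978.9, and 5.87 and 0.58 for Cluster-72978.4. Both lay under the pseudocount of 1 in the white region, so their log2 differences are understated and the transcripts are not ranked by them. Cluster-72978.8 differed by 2.41 (SE 0.51), with all 3 red libraries above all 3 white ones, but did not pass (adjusted p = 0.0708). The median of the 6 was 2.10 and that of the 4 abundant transcripts 2.26, beside 0 over all transcripts. Only Cluster-72978.11 kept its call without any 1 library: that of Cluster-72978.4 was lost without any of the 6 (adjusted p of up to 0.198) and that of Cluster-72978.9 without 5 of the 6, all but replicate 3 of the red region (up to 0.152). Cluster-72978.8 passed without replicate 2 of the red region (difference 2.96, adjusted p = 0.0205). With the 4 libraries set aside, Cluster-72978.11 and Cluster-72978.8 passed (limma, adjusted p = 1.85e-05 and 0.0250) and the other pair did not (0.213 and 0.223). Fitted on the 6 libraries alone, 0 of 6 passed. This comparison shares its libraries with those against initial flowering.

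TZM and SZT at full bloom gave a comparison of white with red in separate cultivars, where color and cultivar cannot be told apart. In either direction 41.3% of all transcripts were called between them, against 0.167% between the regions of MN. The log2 difference, TZM minus SZT, was -2.66 for Cluster-72978.11 (limma, SE 0.24, adjusted p = 1.99e-08), -2.55 for Cluster-72978.8 (SE 0.51, adjusted p = 0.000430) and -1.65 for Cluster-72978.4 (SE 0.41, adjusted p = 0.00251). Called lower were 3 of 6, beside 20.7% of all transcripts. The median of the 6 was -1.10 and that of the 4 abundant transcripts -2.10, beside 0. Cluster-72978.5 and Cluster-72978.7 were at or near 0 FPKM here and draw the median of the 6 towards 0. Cluster-72978.9 differed by -0.54 (adjusted p = 0.297, 95% interval -1.36 to 0.28). With the 4 libraries set aside the differences were -2.99 for Cluster-72978.11, -1.62 for Cluster-72978.8, -2.51 for Cluster-72978.4 and -1.11 for Cluster-72978.9 (limma, adjusted p = 8.42e-07, 0.0238, 0.00244 and 0.153), with 1 TZM library. The red minus white difference of Cluster-72978.9 was larger in MN than between the cultivars by 1.58 (limma, SE 0.56, adjusted p = 0.0374). For this test the median of the 6 was 0.09 and that of the 4 abundant transcripts 0.24, beside 0. Cluster-72978.9 was the 1 of 6 that passed it, beside 14.6% of all transcripts called in that direction. This call was lost without any of 8 of the 12 libraries, replicates 2 and 3 of the white region, SZT and TZM and replicates 1 and 2 of the red region (adjusted p of up to 0.112), and, with the 4 libraries set aside, the value was 0.77 (adjusted p = 0.530). For Cluster-72978.11 the red minus white differences in MN and between the cultivars differed by 0.05, with a 95% interval from -0.66 to 0.75 (limma, adjusted p = 0.961).

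From bud to full bloom the 4 abundant transcripts fell in both single-colored cultivars. In SZT the ratio of means, bud to full bloom, was 40.7 for Cluster-72978.11, 13.3 for Cluster-72978.8, 200.1 for Cluster-72978.4 and 217 for Cluster-72978.9. The log2 differences were -5.32, -3.54, -7.23 and -7.40 (by limma, adjusted p = 8.01e-13, 7.25e-06, 1.59e-11 and 7.25e-12). In TZM the ratios were 188, 84.7, 660.2 and 380.5, and the log2 differences -7.44, -6.56, -8.45 and -8.23 (by limma, adjusted p = 1.31e-14, 2.86e-09, 2.43e-12 and 2.19e-12). For Cluster-72978.5 they were -3.29 in SZT and -2.10 in TZM, and for Cluster-72978.7 -2.12 and -1.32 (by limma, adjusted p = 4.01e-06, 0.000865, 0.000327 and 0.0193). All 6 were called in both cultivars, but Cluster-72978.5 passed the filter through SZT buds. Of the abundant transcripts 4 of 4 were called, beside 30.8% of all transcripts called lower in SZT and 23.6% in TZM. Their medians were -6.27 and -7.84, beside -0.23 and -0.09. These 4 were marked off by their levels in these data, which were highest in buds, so this count and these medians are descriptions only. Without replicate 3 of the SZT buds, the differences in SZT were -5.51, -4.11, -7.85 and -7.99 for Cluster-72978.11, Cluster-72978.8, Cluster-72978.4 and Cluster-72978.9, and with the 4 full-bloom libraries set aside those in TZM were -7.77, -5.63, -9.31 and -8.80, all called. The call of Cluster-72978.7 in TZM was lost without replicate 1 of the TZM buds (adjusted p = 0.0781) and with the 4 libraries set aside (0.178).

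The fall was steeper in TZM than in SZT for 2 of 6, Cluster-72978.11 with a difference of -2.13 (limma, SE 0.34, adjusted p = 6.07e-05) and Cluster-72978.8 with -3.02 (SE 0.73, adjusted p = 0.00277), beside 16.9% of all transcripts called in that direction. For these 2 the value equals the full-bloom difference, TZM minus SZT (-2.66 and -2.55), minus the bud difference (-0.53 and 0.47), from the same libraries. Neither bud difference passed. Cluster-72978.4 and Cluster-72978.9 differed by -1.22 and -0.83 (adjusted p = 0.104 and 0.259). The median of the 4 abundant transcripts was -1.68, beside 0.11 over all transcripts. Both calls held with the 4 libraries set aside (-2.46 and -2.09, adjusted p = 9.39e-05 and 0.0185), where Cluster-72978.4 passed too (-2.08, adjusted p = 0.0284). Without replicate 3 of the SZT buds, Cluster-72978.11 and Cluster-72978.8 kept their calls at -1.93 and -2.44 (limma, adjusted p = 0.000245 and 0.00989). Cluster-72978.5 and Cluster-72978.7 then passed in the other direction at 1.66 and 1.42 (limma, adjusted p = 0.0472 and 0.0389). Nothing is read from that pair, since both were at or near 0 FPKM at full bloom in TZM and SZT. Their values mostly restate the bud difference, TZM minus SZT, with its sign turned (-1.66 and -1.51 without that replicate).

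In buds none of the 4 abundant CHS transcripts passed between TZM and SZT. Only Cluster-72978.5 did, with a log2 difference of -1.19, TZM minus SZT (limma, SE 0.46, adjusted p = 0.0463), 1 of 6 beside 20.2% of all transcripts called lower. Cluster-72978.11 differed by -0.53, Cluster-72978.4 by -0.43, Cluster-72978.8 by 0.47 and Cluster-72978.9 by 0.29 (adjusted p = 0.0891, 0.459, 0.537 and 0.624). The median of the 4 abundant transcripts was -0.07, beside -0.04 over all, and since Cluster-72978.5 passed the filter through SZT buds and not TZM buds, nothing is read from its call. Replicate 3 of the SZT buds decided this comparison. Without it the abundant Cluster-72978.4 and Cluster-72978.11 passed, at -1.05 and -0.73 (limma, adjusted p = 0.0238 and 0.0331). The values of Cluster-72978.8 and Cluster-72978.9 then turned to -0.11 and -0.31 and did not pass (limma, adjusted p = 0.943 and 0.546). Cluster-72978.5 and Cluster-72978.7 passed at -1.66 and -1.51 (limma, adjusted p = 0.00953 and 0.00463). Nothing is read from the former for the same reason, and the latter lay at 1.11 to 2.15 FPKM in TZM buds. The call of Cluster-72978.5 was lost without replicate 1 of the SZT buds (-0.57, adjusted p = 0.339), and also without replicate 2 of the SZT buds or replicate 2 or 3 of the TZM buds (adjusted p of up to 0.185). Between MN at bud stage 3 and SZT buds, 0 of 6 passed with limma, and 0 of 6 had an unadjusted p under 0.05. In that comparison 3.86% of all transcripts were called in either direction, and the median of the 4 abundant transcripts was 0.42, beside 0.

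Petals counted as the same color were also compared, with the same libraries as in the comparisons of color. On the paper's color chart the white region of MN fell in a white group and TZM in a red-purple one, so these whites were not alike. The red region and SZT both fell in red groups at full bloom, with different codes. The red region of MN had less Cluster-72978.11 than SZT at full bloom (-1.03 on the log2 scale by limma, SE 0.24, adjusted p = 0.00552), with 33.1 to 46.0 FPKM against 64.5 to 89.6 FPKM. It was the only 1 of 6 that passed, beside 7.41% of all transcripts called lower. The median of the 6 was 0.02 and that of the 4 abundant transcripts -0.18, beside 0. Cluster-72978.8 differed by -0.58 (adjusted p = 0.557). The white region of MN had less Cluster-72978.11 than TZM, with -1.08 (limma, SE 0.24, adjusted p = 0.00135), and less Cluster-72978.9, with -1.26 (SE 0.39, adjusted p = 0.0167). Called lower were 2 of 6, beside 18.1% of all transcripts. The median was -0.32 for the 6 and -0.76 for the 4 abundant transcripts, beside 0. Cluster-72978.9 had 0.57 to 0.92 FPKM in the white region and 1.78 to 4.11 FPKM in TZM, and its call was lost without replicate 3 of the white region or replicate 2 or 3 of TZM (adjusted p of up to 0.0705) and with the 4 libraries set aside (0.414).

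A further 6 transcripts carry the same cluster number as CHS and no name in the study's table. They took 13.8% to 16.7% of the summed FPKM of all 12 in TZM buds, 7.45% to 12.003% in the buds of SZT and MN, and 0% to 11.6% at full bloom. The most abundant, Cluster-72978.1, had 923, 782 and 725 FPKM in TZM buds, 576, 746 and 205 in SZT buds, 287, 230.1 and 329 in MN at bud stage 1, and 647, 503 and 657 at bud stage 3. It was at most 2.03 FPKM at full bloom, where red and white petals overlapped. Another pair of these transcripts, chosen after their values were seen, divided the cultivars. Cluster-72978.2 had 336, 307 and 269 FPKM in TZM buds and 0.55, 1.65 and 3.02 FPKM in TZM at full bloom, and no more than 0.27 FPKM in any library of SZT or MN. Cluster-72978.3 was listed at 0 in all 6 TZM libraries and had 431, 406 and 168 FPKM in SZT buds, 215 to 235 FPKM in replicates 1 and 3 and 167 FPKM in replicate 2 of MN at bud stage 1, and 315 to 453 FPKM at bud stage 3. In the white region it was listed at 0 in all 3 libraries, and in the red region it had 1.47, 3.69 and 1.33 FPKM. Whether these transcripts are copies, alleles or pieces of CHS was not tested. One further transcript, Cluster-72978.10, had 234 FPKM in replicate 1 of MN at bud stage 1 and was listed at 0 in every other library.

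**Figure D5:**
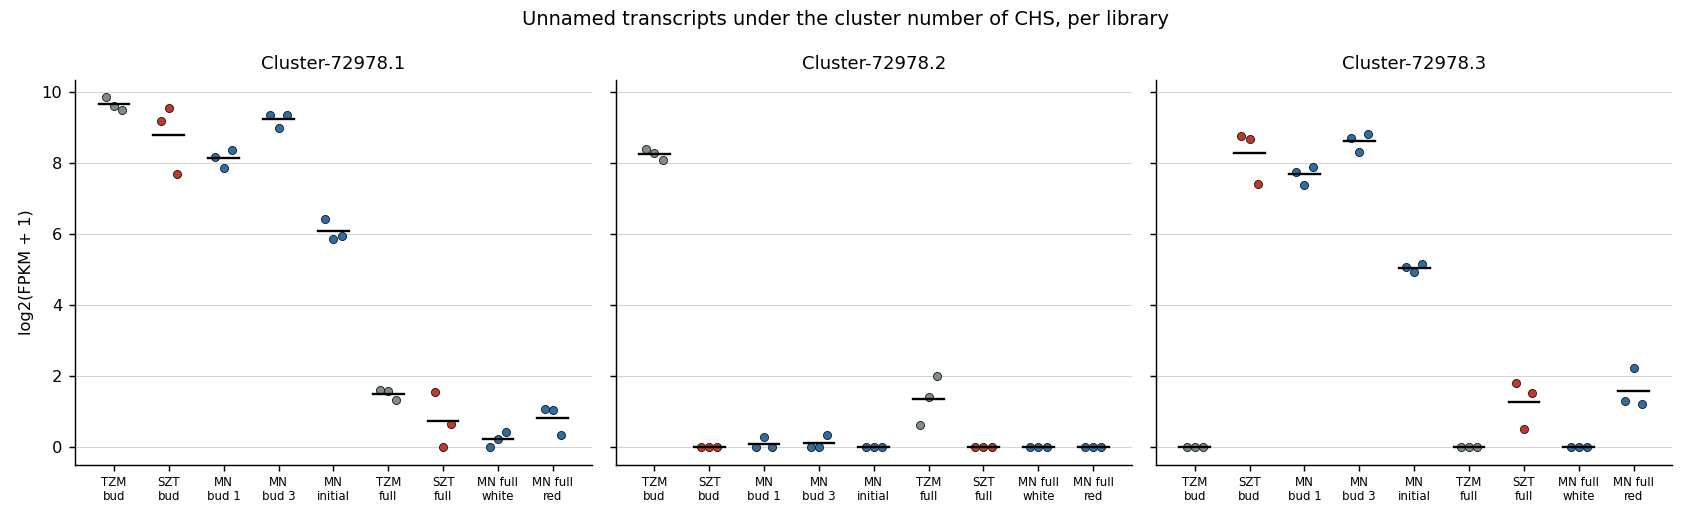
Level as log2(FPKM + 1) of 3 unnamed transcripts under the cluster number of CHS in the 27 libraries by group, with TZM in grey, SZT in red, MN in blue and the group mean as a line. Cluster-72978.2 is found in TZM (269 to 336 FPKM in buds) and Cluster-72978.3 in SZT and MN (168 to 431 FPKM in SZT buds).

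The later enzymes of the pathway were named by the study in 14 transcripts: flavanone 3-hydroxylase (F3H, 6), which makes dihydroflavonols, dihydroflavonol reductase (DFR, 3) and anthocyanidin synthase (ANS, 3), which lead on to anthocyanidins, and anthocyanidin reductase (ANR, 2), which diverts them to proanthocyanidins. All 14 passed the filter. By limma, 10 of 14 were lower at initial flowering than at bud stage 3 and 0 higher, beside 20.8% of all transcripts called lower. At full bloom against the bud, 12 were lower and 0 higher in SZT, beside 30.8% of all called lower, and 9 were lower and 2, both ANR, higher in TZM, beside 23.6% and 14.9%. Between TZM and SZT at full bloom 6 were lower in TZM and 1, of ANR, was higher, beside 20.7% and 20.5%. Both ANR transcripts passed the filter only through TZM and MN at full bloom, so nothing is read from their calls as higher in TZM. Between the red and white regions of MN, 0 of 14 passed by limma, and 1 of 14 had an unadjusted p under 0.05. Since 0.167% of all transcripts were called there in either direction, nothing is read from the 0 of 14. The study chose these transcripts too on these samples. The most abundant F3H transcript, Cluster-88339.0, had 34.7 ± 7.28 FPKM in the red region and 45.4 ± 3.64 in the white region (SD, n = 3), the most abundant DFR transcript, Cluster-90241.3, had 75.8 ± 8.95 and 69.1 ± 1.96, and the most abundant ANS transcript, Cluster-21086.8, had 19.8 ± 7.83 and 15.6 ± 10.8. The regions overlapped for all 3, and for Cluster-15097.13, the most abundant ANR transcript, at 1.81 to 38.7 FPKM in the red region and 1.79 to 43.3 FPKM in the white region.

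The transcripts whose log2(FPKM + 1) followed the CHS sum most closely over the 27 libraries were Cluster-13757.5 and Cluster-61112.6 (Pearson's r = 0.977 for each), then Cluster-824.208, Cluster-68370.2 (0.974) and Cluster-103202.42 (0.973). The last is a zinc finger factor of the C3H family in the study's table. These share with CHS the libraries and the step from bud to bloom, and no p is given. Cluster-13757.5 had 1859 FPKM at bud stage 3 of MN, 265 at initial flowering, 14.7 in the red region and 13.95 in the white region. The study paired 24 transcription factor transcripts with CHS on these same samples, so they are no independent evidence. All 24 passed the filter, with r from 0.794 to 0.973, a median of 0.931, and 19 at or above 0.9.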

How the data were processed

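Messenger RNA enriched on oligo(dT) beads was sequenced on Illumina HiSeq from 27 libraries. The authors trimmed the reads with Trimmomatic 0.36 and assembled transcripts de novo with Trinity. The software for mapping and quantification is not given in the sources used. The deposited values are FPKM per transcript and library, rounded to 2 decimals by the authors. The paper gives a total and an average of clean reads, but the read depth of each library is unknown here. The FPKM columns were matched to samples by title, and groups follow cultivar, stage and petal region. The labels call the third cultivar Manao and the paper Damanao.

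After a filter on the mean (5 FPKM or more in at least 1 group), transcripts were tested by limma 3.58.1 (R 4.3.3) on log2(FPKM + 1), with a mean for each of the 9 groups, a trend on mean expression and Benjamini-Hochberg adjustment over all transcripts within each of 14 comparisons, 2 of which are differences of differences. A call needed an adjusted p under 0.05. DEGseq, named in the study's methods, works on counts and was not run. Shares were compared by exact permutation in Python 3.11.15 (numpy 2.4.6, pandas 2.3.3), and plots were drawn with matplotlib 3.10.9. The test scripts were tested on simulated data.

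The transcripts named are the 6 CHS transcripts, the most abundant of each other enzyme and of the unnamed transcripts with the same cluster number, and the 5 with the highest r with the CHS sum. Outside this rule, Cluster-72978.2 and Cluster-72978.3 were named after their values were seen, and Cluster-72978.10 was named too. The members and lists were chosen with earlier results of these data known. The 4 CHS transcripts called abundant were marked off by their levels in these data. The alternatives tried were 0.01 as pseudocount, a filter of 10 FPKM or none, median-ratio scaling, no trend, an adjusted p of at most 0.001 with a log2 difference of at least 1, the replicate number as a block, the libraries of a comparison alone, each library left out in turn, other scales and denominators of the share, and 4 full-bloom libraries left out, the last chosen after seeing the data.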

Additional observations from a re-analysis of the deposited data

Results flagged for a closer look

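The difference of a change between groups passed its own test for 3 results. The fall from bud to full bloom was steeper in TZM than in SZT for Cluster-72978.11, with a difference of -2.13 on the log2 scale (limma, SE 0.34, adjusted p = 6.07e-05), and for Cluster-72978.8, with -3.02 (SE 0.73, adjusted p = 0.00277). Both values share their libraries with the full-bloom and bud comparisons of these cultivars. Color and cultivar cannot be told apart between SZT and TZM. The difference between red and white petals was larger within MN than between SZT and TZM for Cluster-72978.9, by 1.58 (SE 0.56, adjusted p = 0.0374). This last call was lost without any of 8 of the 12 libraries (adjusted p of up to 0.112) and with the 4 full-bloom libraries set aside (0.77, adjusted p = 0.530), and 1 of 6 called is close to the 14.6% of all transcripts called in that direction. With 3 libraries in each group, no library was tested as standing apart from its group.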

How the results depend on the processing

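The alternatives left the direction of every called log2 difference as it was. Limits lie in the small groups, the unknown depth of each library, reads that transcripts of a cluster may share and values listed at 0. The number of CHS transcripts called changed by over 1.5 times as follows. Under the stricter rule (adjusted p of at most 0.001 and a log2 difference of at least 1) it was 0 for bud stage 3 against bud stage 1, TZM against SZT buds, the red region against SZT, the white region against TZM and the color difference of differences, and 1 for the red against the white region and for the stage difference of differences. On the libraries of a comparison alone it was 0 for bud stage 3 against bud stage 1, red against white region, TZM against SZT buds, the red region against SZT and the color difference of differences, and 1 for the white region against TZM. With a pseudocount of 0.01 it was 0 for bud stage 3 against bud stage 1 and for TZM against SZT buds, and with a filter of 10 it was 1 for the former. TZM against SZT buds gave 0 with no filter, with median-ratio scaling and with the replicate block, and the replicate block changed no other count by over 1.5 times, though the red against the white region then gave 2. Deviations of same-numbered libraries from their group means had r from -0.22 to 0.093, with 0 of 36 pairs over 0.1. Differently numbered pairs were not set beside them, so this cannot exclude that samples were paired. The numbers were not taken to pair samples. The color difference of differences gave 0 with no filter. Median-ratio scaling took the median over all transcripts to 0 where it had been -0.16 and -0.18 (red and white region against initial flowering), -0.23 (SZT stage) and 0.11 (stage difference of differences). With the 4 full-bloom libraries left out, an alternative chosen after seeing the data, the white region against TZM gave 1 and the color difference of differences 0.

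Leaving out 1 library at a time, the count ranged from 1 to 2 for bud stage 3 against bud stage 1, 1 to 2 for the red against the white region, 0 to 4 for TZM against SZT buds, 1 to 2 for the white region against TZM, 2 to 4 for the stage difference of differences and 0 to 1 for the color difference of differences. A lone value turned for Cluster-72978.8 and Cluster-72978.9 between TZM and SZT buds (ranges -0.11 to 0.89 and -0.31 to 0.68), for Cluster-72978.7 in the stage difference of differences (-0.31 with a pseudocount of 0.01) and for Cluster-72978.11 in the color difference of differences (-0.0295 with median-ratio scaling, -0.14 without the 4 libraries, and -0.21 to 0.33 with each library left out). None of these had passed.

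For the shares, the log2 ratio to the other transcripts turned the stage difference of Cluster-72978.5 to 3.56 and of Cluster-72978.7 to 4.73, and the red against white difference of Cluster-72978.4 to -0.65 and of Cluster-72978.5 to -2.46. On that scale the red against white values of Cluster-72978.5, Cluster-72978.7 (-2.503) and Cluster-72978.9 (-1.23) passed. By construction, a transcript near 0 keeps its pseudocount of 1 while the other transcripts change. In the white region Cluster-72978.9 lay under that pseudocount as well, at 0.57 to 0.92 FPKM. Without the 4 libraries the stage difference of Cluster-72978.7 was 0.0047 percentage points, and the red against white differences of Cluster-72978.8 and Cluster-72978.11 were -15.1 and 14.3 points. Leaving out each library moved the stage difference of Cluster-72978.7 between -0.036 and -0.0048 points, and the red against white difference between -0.33 and 0.99 points for Cluster-72978.4, between -0.051 and 0.013 for Cluster-72978.7 and between -7.65 and 2.42 for Cluster-72978.8. The cause of these changes was not tested.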
